A study of Mus musculus with 2 samples.

Results

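The 10 genes described here mark tissue macrophages, and 3 of them encode the chains of the complement protein C1q. They were taken by gene name from the probe annotation of the arrays: C1qa, C1qb, C1qc, Csf1r, Cd68, Mrc1, Lyz2, Cx3cr1, Aif1 and Tyrobp. All 10 had a probe and all 10 were among the 20508 genes tested, and they held 13 of the 39429 probes. Ureter RNA of E14.5 embryos of the NMRI strain was hybridised to 2 dye-swapped 2-colour Agilent arrays. On each array 1 RNA is labelled Gata2cKO and has the genotype Tbx18(cre/+);Gata2(fl/fl), in which 1 Tbx18 allele makes Cre recombinase and both alleles of the transcription factor gene Gata2 are flanked by loxP sites. The control RNA has the genotype Tbx18(+/+);Gata2(fl/?), without Cre and with 1 allele that the label does not state. Tbx18 is active in the mesenchyme that surrounds the ureter, and macrophages descend from other progenitors. Only Gata2cKO embryos carried the Cre allele of Tbx18, so its own effect and that of the Gata2 deletion cannot be told apart. Array 1 held female RNAs with Gata2cKO in Alexa Fluor 647, and array 2 held male RNAs with Gata2cKO in Alexa Fluor 555. Sex and dye orientation therefore cannot be told apart. How many embryos gave each RNA is not stated in the labels. A p-value here rests on the gene's own spread between these 2 arrays and on a spread estimated over all genes tested. In the main limma test the latter carried the greater weight (4.68 prior against 1 residual degrees of freedom). The intervals of a mean rest on the same combined spread.

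Macrophages settle in the organs of the embryo early, from progenitors of the yolk sac and the fetal liver, and clear dying cells there. They live on signals through Csf1r, the receptor for the growth factors CSF1 and IL-34. C1q is the recognition unit that opens the classical pathway of complement. It is built of A, B and C chains, each with a collagen-like stalk and a globular head, and tissue macrophages are a main source of it. Tyrobp, also called DAP12, is a membrane adaptor that carries the signal of receptors such as TREM2 into the cell.

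The C1q genes lie side by side on chromosome 4 in the order C1qb, C1qc, C1qa, on the minus strand. Shown first are 60-base probes, from the deposited array annotation, whose letters can be read without a stop codon in at least 1 frame. They are given because the results below rest on what bound to them.
C1qa probe: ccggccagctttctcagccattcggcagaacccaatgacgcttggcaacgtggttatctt
C1qb probe: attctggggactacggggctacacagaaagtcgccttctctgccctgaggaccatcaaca
Tyrobp probe: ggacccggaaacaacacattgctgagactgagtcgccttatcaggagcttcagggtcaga
Lyz2 probe: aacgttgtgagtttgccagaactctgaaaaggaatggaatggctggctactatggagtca
In the mm9 build used by the files, the C1qa probe lies at chr4:136452409-136452468 and the C1qb probe at chr4:136436578-136436637. The C1qc probe, which was printed in 10 spots per array, lies at chr4:136445766-136445825. The Lyz2 probe lies at chr10:116719175-116719234, also on the minus strand. The Tyrobp probe spans chr7:31200651-31202378 on the plus strand, which is 1728 bases for 60 bases of probe, so its match is split along the genome. No mm9 gene annotation was used, so exons and untranslated regions were not assigned to the probes.

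RefSeq promoters (GRCm38.p6, 250 bases before to 50 after the gene start) were matched for 7 of the 10 genes. They were searched on both strands for GAGGAA, the box preferred by the ETS factor PU.1, which is encoded by Spi1 and directs macrophage development. At least 1 match was found in 5 of the 7 (Mrc1, C1qb, C1qc, Cd68 and Aif1), and in 28.3% of all 32851 promoters. A second motif searched in the same promoters, not named here, was in 0 of the 7 and in 4.67% of all. The 250 bases before the start that the promoter table uses are shown for C1qb and C1qc, because these neighbours had near-equal ratios. For C1qc that start lies inside the gene as RefSeq bounds it, so the last bases of the window are within the gene. The capitals mark GAGGAA or its reverse complement TTCCTC, which stand at positions -30 to -25 from that start in C1qb and -193 to -188 in C1qc.
C1qb promoter, minus strand: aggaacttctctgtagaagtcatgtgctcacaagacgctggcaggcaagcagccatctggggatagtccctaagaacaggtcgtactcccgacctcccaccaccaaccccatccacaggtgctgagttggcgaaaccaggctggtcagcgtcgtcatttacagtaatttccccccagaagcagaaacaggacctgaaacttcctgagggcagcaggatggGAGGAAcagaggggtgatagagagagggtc
C1qc promoter, minus strand: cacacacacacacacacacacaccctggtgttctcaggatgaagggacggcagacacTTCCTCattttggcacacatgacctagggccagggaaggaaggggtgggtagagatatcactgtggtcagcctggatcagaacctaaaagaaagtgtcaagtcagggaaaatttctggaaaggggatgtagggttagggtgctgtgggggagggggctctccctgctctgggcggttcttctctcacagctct
They lie at chr4:136886201-136886450 and chr4:136892915-136893164 of GRCm38.p6. A match is a run of letters in these windows and was not tested as a binding site.

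The median spot signal was 753.6 (Gata2cKO) and 433.1 (control) on array 1, and 428.1 (Gata2cKO) and 754 (control) on array 2, so the 647 channel was the brighter on both. The share of non-control spots flagged well above background was 66% to 69.4% per channel, and the number of arrays limits the precision. The 1 probe of Gata2 read higher, not lower, in the RNA labelled Gata2cKO, with log2 ratios of 0.33 and 0.54 (mean 0.44 ± 0.153, SD, n = 2; limma adjusted p = 0.410). The position of the loxP sites is not in the labels, and a probe outside the deleted stretch checks nothing. Tbx18, of which Gata2cKO embryos keep 1 allele without Cre, also read higher in that RNA, at 0.65 and 0.15 (mean 0.40 ± 0.357, SD, n = 2; limma adjusted p = 0.660). Neither gene thus bore out the labelled direction. Directions below hence follow the dye labels, and Gata2cKO means the RNA labelled so. Of the ureter markers listed, all 8 urothelial genes, all 6 smooth muscle genes and all 6 genes of the ureteric mesenchyme were well above background.

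The design asks which transcripts differ in the ureter when Gata2 is removed under Tbx18-driven Cre. All 13 macrophage probes were well above background in all 4 RNAs. The genes were lower as a group, by modest amounts, in the RNA labelled Gata2cKO. Their mean log2 ratios ran from -0.59 for C1qa to -0.07 for Mrc1, with a median of -0.34, against a median of 0.00284 over all genes tested. On both arrays 8 of the 10 were lower and 0 were higher, where 26.2% of all genes were lower on both. Of the 10 genes, 7 lay in the third of 4 equal bins of genes by brightness, in which 27.7% of genes were lower on both arrays. The 10 were chosen with earlier results of these data known, and they share the same 4 RNAs. They are thus not independent replicates, the counts are descriptions, and the set was not tested.

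In limma 0 of the 10 passed an adjusted p of 0.05 over all genes, a threshold that 0.0878% of all genes passed. At an unadjusted p under 0.05, 7 were lower (C1qa, C1qb, C1qc, Csf1r, Cd68, Aif1 and Tyrobp), which held for 3.41% of all genes. On both arrays 0 of the 10 reached 1.5-fold lower, against 0.439% of all genes. In a bulk tissue RNA, fewer macrophages and less RNA per macrophage cannot be told apart.

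The level of a gene is given here as a normalised log2 intensity, after loess within arrays and equalised brightness between them. It can be compared between RNAs for 1 probe but not between probes. Levels of different arrays also differ in sex and dye, so comparing them is a description. The tests used the ratio within each array. In 6 of the 10 genes both Gata2cKO levels were below both control levels, which was so for 18.9% of all genes. These 6 were C1qa, C1qb, C1qc, Csf1r, Aif1 and Tyrobp.

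**Figure D1:**
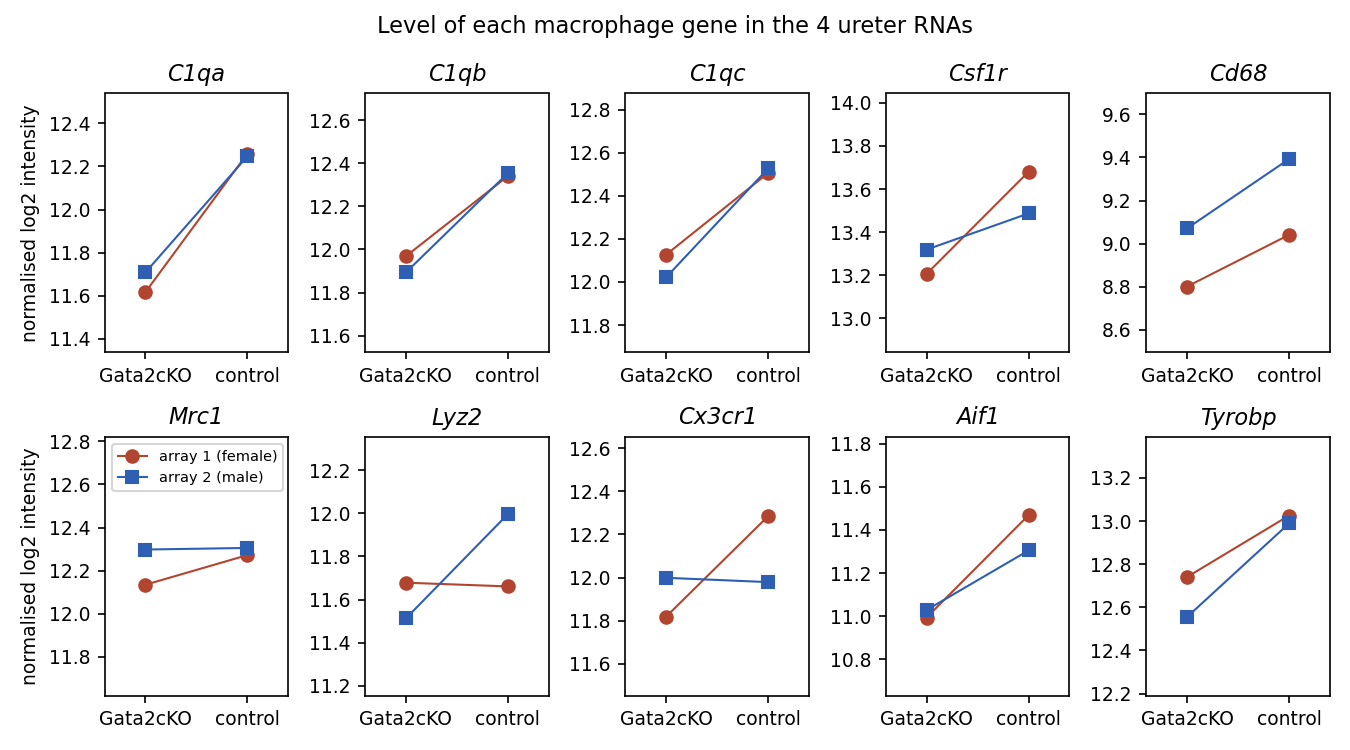
Normalised log2 intensity (vertical axis, each panel 1.2 log2 units high) of the 10 macrophage genes in Gata2cKO and control RNA, with a line joining the 2 RNAs of an array (circles, array 1, female; squares, array 2, male). Both Gata2cKO points lie below both control points for 6 genes, the lines of Lyz2 and Cx3cr1 are nearly flat on 1 array each, and Mrc1 is nearly flat on array 2.

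By the mean ratio of the brightest probe, the C1q chains were the lowest of the set. On array 1 alone Aif1, Csf1r and Cx3cr1 (each -0.47) were lower than C1qb and C1qc, and on array 2 Lyz2 (-0.48) was lower than C1qb. In the authors' deposited table Aif1 (-0.64) was lower than C1qb and C1qc, and Tyrobp (-0.52) lower than C1qc. C1qa, the A chain, had levels of 11.62 and 11.71 in Gata2cKO RNA, against 12.26 and 12.25 in control RNA. The log2 ratios of -0.64 and -0.54 averaged -0.59 ± 0.0737 (SD, n = 2; limma adjusted p = 0.202), or 1.51-fold lower. The Gata2cKO levels were thus close to each other and far from the control levels, with no overlap. The 95% interval of the C1qa mean was -0.86 to -0.33. With a variance that follows brightness and resists outliers C1qa passed in limma (adjusted p = 0.0109), the single member to do so under any processing. With that variance 1.83% of all genes passed, against 0.0878% in the main test. Under the other processing that was tested, the limma adjusted p of C1qa was at least 0.103.

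C1qb, the B chain, had levels of 11.97 and 11.89 in Gata2cKO RNA, against 12.34 and 12.35 in control RNA. The groups did not overlap, and its mean log2 ratio was -0.42 ± 0.0629 (SD, n = 2; limma adjusted p = 0.391), with -0.37 on array 1 and -0.46 on array 2. C1qc, the C chain, had levels of 12.13 and 12.02 in Gata2cKO RNA, against 12.51 and 12.53 in control RNA. Its mean log2 ratio was -0.44 ± 0.0893 (SD, n = 2; limma adjusted p = 0.363), with -0.38 on array 1 and -0.50 on array 2. The repeated C1qc spots show the error within an array. The 8 spots used on array 1 ran from -0.43 to -0.35 (SD 0.0255) and the 9 used on array 2 from -0.53 to -0.47 (SD 0.0190). Every spot used was below 0. Spots of 1 array share their RNAs, so their spread says nothing of the error between RNAs. In the authors' deposited table, which comes from the same 2 arrays, the 3 chains were also lower in both columns. The direction of that table was itself taken from its correlation with the ratios used here, so its sign is no separate check. The mean log2 values were -0.74 for C1qa, -0.53 for C1qb and -0.42 for C1qc. The 2 columns lay farther apart there for C1qa (-1.09 and -0.40) and C1qb (-0.77 and -0.28), but not for C1qc (-0.48 and -0.36).

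Of the surface receptors, Csf1r was measured by 3 probes. Its brightest probe, at chr18:61290725-61290784 (mm9, plus strand), had levels of 13.21 and 13.32 in Gata2cKO RNA, against 13.68 and 13.49 in control RNA. The groups did not overlap, but the ratio on array 1 (-0.47) was far larger than on array 2 (-0.17), for a mean of -0.32 ± 0.216 (SD, n = 2; limma adjusted p = 0.669). The second probe, which spans 361 bases of genome, gave nearly equal ratios of -0.39 and -0.47. The third gave 0.00400 on array 1 and -0.33 on array 2. The 3 probes of Csf1r therefore placed its mean between -0.43 and -0.16, all below 0. In the authors' deposited table their mean log2 values were -0.34, -0.25 and 0.05, so the third was not lower there.

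Cx3cr1, the receptor for the membrane-bound chemokine fractalkine, had 2 probes on chromosome 9. The brighter one had levels of 11.82 and 11.999 in Gata2cKO RNA, against 12.29 and 11.98 in control RNA, so the groups overlapped. Its ratios were -0.47 on array 1 and 0.020 on array 2 (mean -0.22 ± 0.344, SD, n = 2; limma adjusted p = 0.822). The other probe was lower on both arrays, at -0.24 and -0.32. Mrc1, the mannose receptor of resident macrophages, which some endothelial cells also make, had levels of 12.13 and 12.30 in Gata2cKO RNA, against 12.27 and 12.31 in control RNA. It was the member nearest to 0, with -0.14 and -0.0073 on the arrays (mean -0.07 ± 0.0919, SD, n = 2; limma adjusted p = 0.959). The 95% interval of its mean, -0.34 to 0.20, includes changes as large as the median of the set. In the authors' deposited table Mrc1 had a mean log2 value of -0.33.

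Among the genes that act inside the cell, Tyrobp had levels of 12.74 and 12.55 in Gata2cKO RNA, against 13.03 and 12.99 in control RNA. Both Gata2cKO levels were below both control levels, with a mean log2 ratio of -0.36 ± 0.105 (SD, n = 2; limma adjusted p = 0.520). Aif1, a calcium-binding protein of the macrophage cytoskeleton also known as IBA1, had levels of 10.99 and 11.03 in Gata2cKO RNA, against 11.47 and 11.30 in control RNA. It too did not overlap, with a mean of -0.38 ± 0.140 (SD, n = 2; limma adjusted p = 0.508). Cd68, a glycoprotein of macrophage lysosomes, was the dimmest member. It had levels of 8.80 and 9.07 in Gata2cKO RNA, against 9.04 and 9.39 in control RNA, so the groups overlapped although each array gave a lower value in Gata2cKO (-0.24 and -0.32; limma adjusted p = 0.664).

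Lyz2 encodes the lysozyme of macrophages and granulocytes, an enzyme that cuts bacterial cell walls. Its levels were 11.68 and 11.51 in Gata2cKO RNA, against 11.66 and 11.996 in control RNA. Its ratio was 0.017 on array 1 and -0.48 on array 2 (mean -0.23 ± 0.354, SD, n = 2; limma adjusted p = 0.820). The difference thus came from array 2, which held the male RNAs with Gata2cKO in Alexa Fluor 555. Whether sex or dye had a part in it was not tested. In the authors' deposited table Lyz2 was lower in both columns (-0.26 and -0.58). Lyz1, a near-identical neighbouring gene that is not a member, gave ratios of -0.0038 and -0.29, and the 2 lysozyme genes may share signal on these probes.

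**Figure D2:**
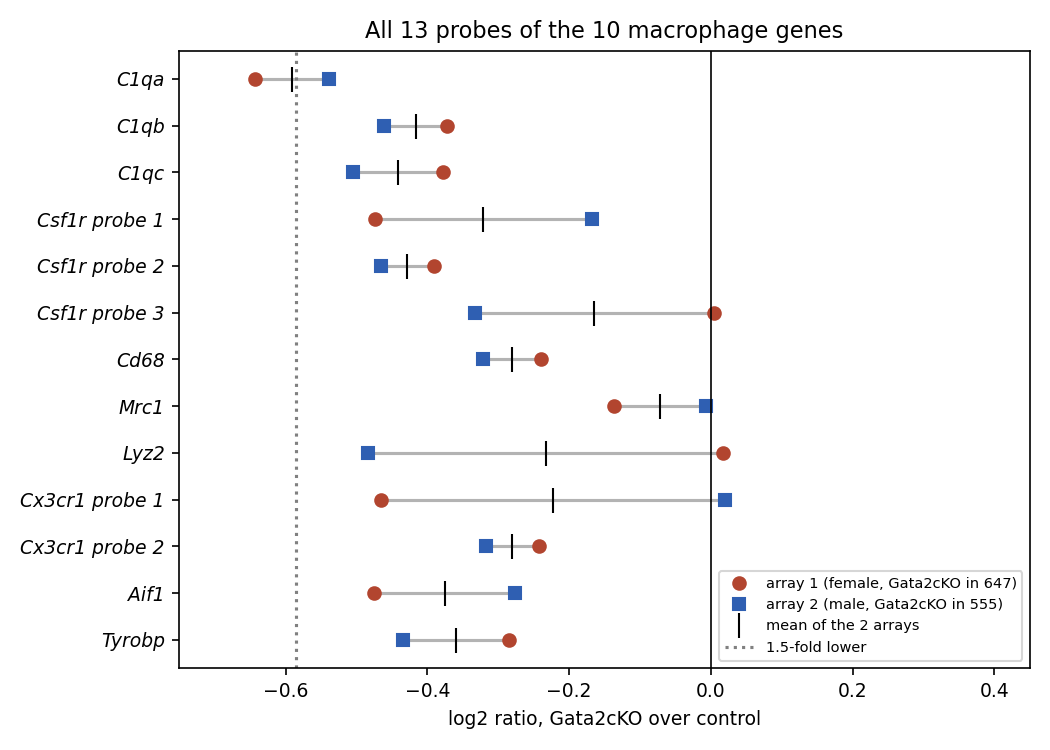
Log2 ratio of Gata2cKO over control (horizontal axis) for all 13 probes of the 10 macrophage genes, brightest probe first within a gene (circles, array 1; squares, array 2; bars, their mean; dotted line, 1.5-fold lower). On both arrays 10 of the 13 probes lie below 0, and C1qa, at a mean of -0.59, lies farthest left.

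The set split by how the arrays compared. C1qa, C1qb, C1qc, Cd68, Mrc1 and Tyrobp differed between arrays by at most 0.15 (log2). Lyz2 was lower on array 2 alone, whereas the first probe of Cx3cr1 was lower on array 1 alone. Among all genes in the third brightness bin the arrays' ratios correlated at Pearson's r = 0.326 over 5127 genes, and in the brightest bin, which held 0 members, at -0.572. These are descriptions across genes, which share the arrays and are not independent replicates.

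Other macrophage genes also lay mostly below 0, with a smaller median. Of 40 listed, 35 were well above background and tested. On both arrays 28 were lower and 1 was higher, and the median log2 ratio was -0.19. Over all genes tested 26.2% were lower on both arrays, the share to set beside the counts of the lists below as well. None of the 35 rose or fell over all genes in limma. At an unadjusted p under 0.05, 11 were lower and 0 higher, where 3.41% of all genes were lower. The 4 with the largest mean ratios were Ms4a7 (-0.41), the lysosomal membrane gene Laptm5 (-0.38), Trem2, a lipid receptor that signals through Tyrobp (-0.38), and the lysosomal protease gene Ctss (-0.34), with limma adjusted p from 0.433 to 0.618. Spi1 was at -0.30, Adgre1, a surface marker of mouse macrophages, at -0.32, and the pan-leukocyte gene Ptprc at -0.19. Itgam, the complement receptor chain CD11b, was the 1 gene higher on both arrays, at 0.30 and 0.22. It was named after its value was seen. Cd163, Fcgr1, Timd4 and P2ry12 were among those not well above background.

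Of the 14 listed genes that work with the Tyrobp adaptor, 10 were tested, 6 were lower and 1 higher on both arrays, and the median was -0.10. Trem2 and Fcer1g stood in both lists. The related adaptor gene Fcer1g had levels of 13.45 and 13.23 in Gata2cKO RNA, against 13.66 and 13.70 in control RNA, a mean log2 ratio of -0.34 ± 0.179 (SD, n = 2; limma adjusted p = 0.618). Vav1, an exchange factor of leukocytes, was at -0.43 and Hcst, which encodes the adaptor DAP10, at -0.22. No gene of this list rose or fell in limma over all genes.

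The ligands of Csf1r and Cx3cr1 that were measured lay near 0. Csf1 was at -0.03 and -0.10 on the arrays (limma adjusted p = 0.963) and Cx3cl1, which encodes fractalkine, at -0.0016 and 0.039 (adjusted p = 0.994). Il34 was not well above background. Of the 6 ligands listed 5 were tested, 3 were lower on both arrays, and Tgfb1 was at -0.26. Apoe, an apolipoprotein that binds TREM2 and that macrophages and other cells make, had levels of 14.95 and 14.89 in Gata2cKO RNA, against 15.57 and 15.36 in control RNA. Its mean log2 ratio was -0.54 ± 0.105 (SD, n = 2; limma adjusted p = 0.239), close to that of C1qa.

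Other complement genes went in both directions, more often lower than higher. Of 26 listed genes, 20 were tested, 11 were lower and 4 were higher on both arrays, and their median was -0.07. Of all 20508 genes, 5370 (26.2%) were lower and 5535 were higher on both arrays. In limma over all genes 0 rose or fell (5 lower and 1 higher at an unadjusted p under 0.05, where 3.41% of all genes were lower). C1ra, a protease that C1q activates, was at -0.43 on array 1 and 0.24 on array 2. C3, the central component, was at -0.16 and the C1 inhibitor gene Serping1 at -0.10. Masp1 (-0.35), Clu (-0.34) and Cd55 (-0.30), a brake on complement at the cell surface, were the largest of those that were lower.

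**Figure D3:**
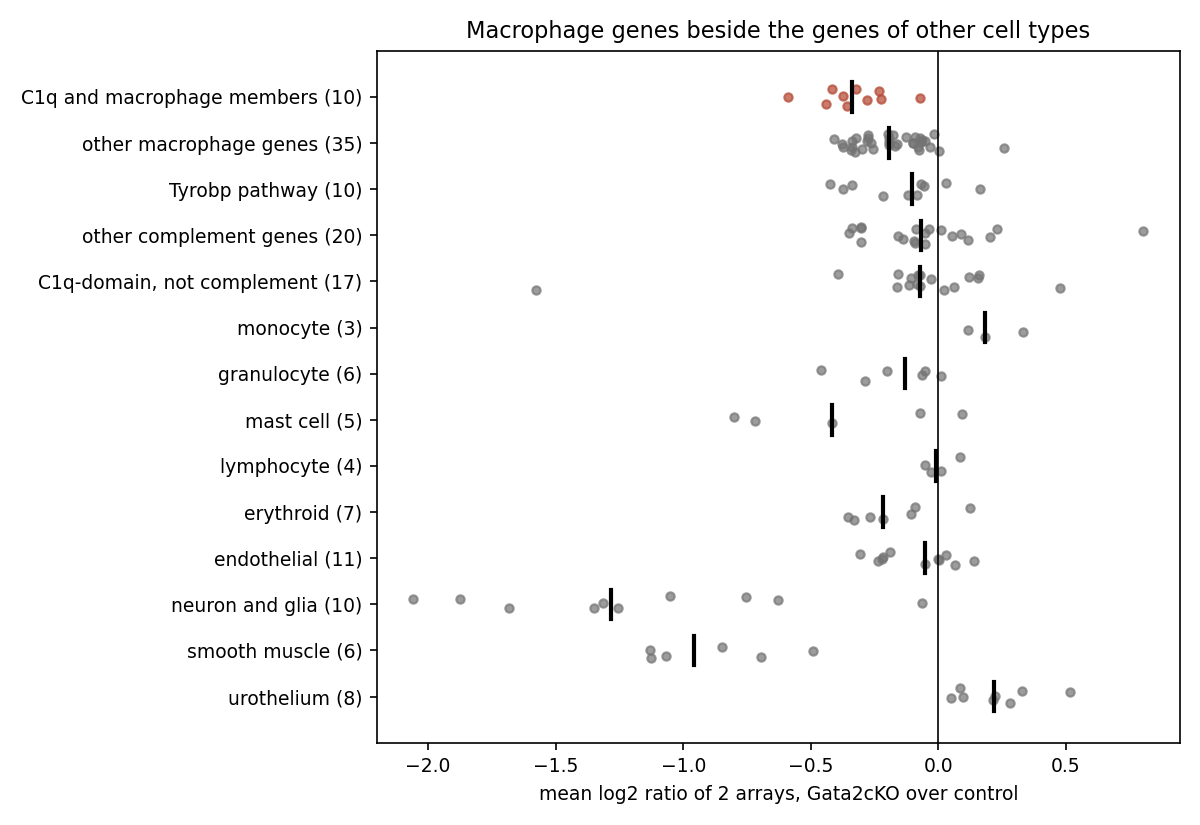
Mean log2 ratio of Gata2cKO over control (horizontal axis) for each gene tested in 14 lists, with the number of genes in brackets and a bar at the median. The macrophage members have a median of -0.34, the other macrophage genes -0.19 and the other complement genes -0.07, while neuron and glia genes lie at -1.28 and smooth muscle genes at -0.96.

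Markers of some other cell types, namely neurons and glia and smooth muscle, were lower as well. In limma 2 of 10 neuron and glia genes fell over all genes, at an adjusted p of 0.05 that 0.0878% of all genes passed. The summed linear level of the 10 macrophage genes was 41.8 and 42.2 (in units of 1000 intensity units) in Gata2cKO RNA, against 53.9 and 52.0 in control RNA. That of 10 neuron and glia genes was 16.9 and 17.0 in Gata2cKO RNA, against 45.6 and 33.4 in control RNA. That of 6 smooth muscle genes was 31.2 and 26.7 in Gata2cKO RNA, against 46.1 and 51.1 in control RNA. On both arrays 9 of the 10 neuron and glia genes and all 6 smooth muscle genes were lower. All 3 sums were lower in both Gata2cKO RNAs than in both control RNAs, and the part of the cell makeup in the macrophage result was not tested. Of 8 urothelial genes 5 were higher on both arrays (median 0.22), and of 6 genes of the ureteric mesenchyme 2 were lower and 3 higher.

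Among blood cells, mast cell genes were low on 1 array mainly. Of 6 listed, 5 were tested, and 4 were lower and 1 higher on both arrays. Cma1, a mast cell chymase, was at -0.20 on array 1 and -1.40 on array 2, and the carboxypeptidase gene Cpa3 at -0.08 and -1.35. The summed level of the list was 8.74 and 8.70 in Gata2cKO RNA, against 8.39 and 11.3 in control RNA, so the male control stood alone, as it did for Lyz2. The 1 gene higher on both arrays was by far the brightest of the list and made up most of each sum. Of 9 granulocyte genes 6 were tested and 3 were lower on both arrays, Camp at -0.51 and -0.41, Prtn3 at -0.18 and -0.21, and S100a9 at -0.08 and -0.50. Of these 3 S100a9 alone was much lower on array 2 than on array 1. The other granulocyte genes tested, not named here, changed sign between array 1 and array 2 (0.30 and -0.43, 0.05 and -0.15, -0.28 and 0.30). The granulocyte sums were 4.86 and 4.75 in Gata2cKO RNA, against 5.06 and 5.79 in control RNA. Mcpt4, Ngp and Ltf were not well above background. The part of mast cells and granulocytes in the Lyz2 value was not tested.

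The erythroid sums were 816 and 385 in Gata2cKO RNA and 498 and 821 in control RNA, with opposite directions on the 2 arrays. The 647 RNA was the higher on both, which was female Gata2cKO on array 1 and male control on array 2. Dye and differences between the RNAs themselves cannot be told apart here. The median log2 ratio of the erythroid genes was -0.22 over 7 genes. Endothelial genes, which bear on Mrc1, had a median of -0.05 over 11 genes and sums of 94.1 and 98.6 in Gata2cKO RNA, against 103 and 96.4 in control RNA, which overlapped.

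Over the 2 arrays the genes outside all lists whose pair of ratios lay nearest to the C1q mean (-0.46 on array 1, -0.50 on array 2) were Sult4a1, Lypd1, Ryr2, Prss23 and Cstdc5. Their distances in log2 units were 0.00650, 0.0239, 0.0282, 0.0326 and 0.0342. Within a distance of 0.1 lay 39 genes, 1 of them a member. With 2 values per gene this likeness is a weak description.

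**Figure D4:**
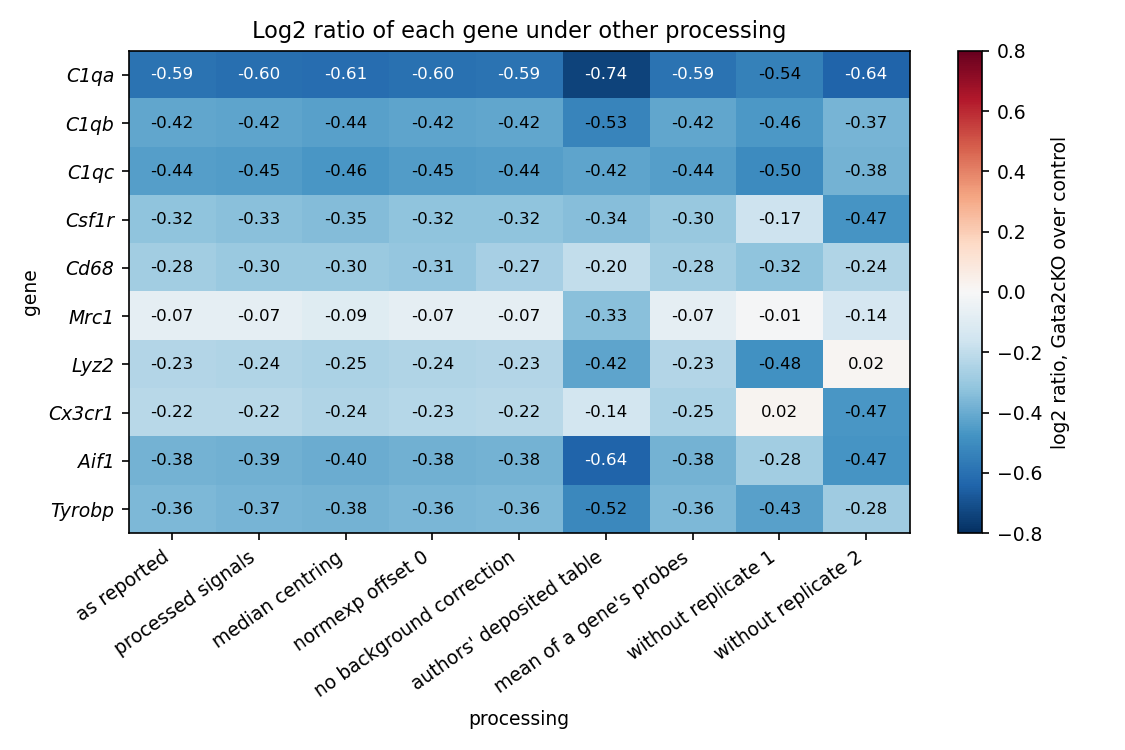
Log2 ratio of Gata2cKO over control for each macrophage gene (down the page) under each setting that could move a ratio (across), written in each cell and coloured from -0.8 (blue) to 0.8 (red). Without replicate 1 Cx3cr1 is at 0.020, without replicate 2 Lyz2 is at 0.017, and each other cell is below 0.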

How the data were processed

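Each array was scanned by the authors and read with Agilent Feature Extraction 10.7.3.1, per the submitters' processing notes and the file headers, on design 026655, whose probes are placed on mm9. Mean spot signals and median backgrounds are linear intensity values in the deposited files. Processed signals and a log10 red-to-green ratio stand beside them, both already corrected for background and dye by the software per the file headers. The authors' deposited value table holds a score per probe and array, which reads as a signed fold change because no value lies inside ±1, with a median of 1 in both columns. How it was computed and centred is not stated in the labels. Its columns correlated with the scanner ratios at 0.443 and 0.376 over probes, from which its direction was taken.

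Background was corrected by normexp (offset 50) and log2 ratios were normalized by loess (span 0.3), with 1224 positive and 153 negative control spots and outlier spots (255 and 178) at weight 0. No spot was saturated (0 on both arrays). Each array's sign was set by its dyes to give Gata2cKO over control, and replicate spots were averaged. Probes well above background on both arrays in 1 group (25677) were kept, and the brightest probe stood for a gene. Accessions named 26412 probes through a RefSeq table of GRCm38.p6. Ratios were tested against 0, two-sided, by limma 3.58.1 (lmFit, eBayes; R 4.3.3) over 20508 genes (1 residual and 4.68 prior degrees of freedom), with Benjamini-Hochberg adjustment. The functions were tested on simulated data. Levels are channel values after loess and Aquantile. Alternatives were the processed signals, median centring, no offset, no background correction, Aquantile, the deposited table, no detection filter, probe means, a trended and robust variance, and each array left out.

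The 10 members and the gene lists were chosen with earlier results of these data known, and so were the promoter motifs and the distance of 0.1. The genes named were all members, up to 4 per list by size of mean ratio where both arrays had 1 sign, a fixed set of partners, and the 5 genes nearest to the C1q mean, except a few that are not reported here.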

Additional observations from a re-analysis of the deposited data

Results flagged for a closer look

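In 4 of the genes named, the female array (array 1) and the male array (array 2) gave ratios of opposite sign, in all but C1ra with at least 1 ratio close to 0. With 1 array of each sex, and the dyes exchanged between them, the difference was not tested. Lyz2 was at 0.017 on array 1 and -0.48 on array 2, a difference of 0.50, and in the authors' deposited table it was lower in both columns (-0.26 and -0.58). Cx3cr1 was at -0.47 and 0.020, a difference of -0.49, while its other probe was lower on both. In the authors' deposited table the first probe of Cx3cr1 was lower in both columns (-0.03 and -0.26). C1ra was at -0.43 and 0.24, a difference of -0.67, and Cx3cl1 at -0.0016 and 0.039, a difference of -0.040.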

How the results depend on the processing

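The median log2 ratio of the 10 macrophage genes, -0.34 as reported, was -0.353 with the scanner software's processed signals, -0.363 with median centring, -0.344 with no offset, -0.421 in the authors' deposited table and -0.332 when a gene's probes were averaged. It was -0.378 without replicate 1 and -0.375 without replicate 2, as the median of single-array ratios. These moves exceed the SD of the 2 arrays' medians, which lay close together. The number of members lower on both arrays, 8 as reported, ran from 8 to 10 under the other processing of both arrays. Under that processing 20.7% to 27.1% of all genes were lower on both. The count of 10 came from the authors' deposited table, where the share of all genes was 21.3%. Past an adjusted p of 0.05 lay 0 members in limma, or 1 (C1qa) with a trended and robust variance. At least 1.5-fold lower on both arrays were 0, or 1 (Aif1) in the authors' deposited table. With an array left out the count is of the single array that remains. It was 0 on array 2 (without replicate 1) and 1 (C1qa) on array 1 (without replicate 2). With an array left out Lyz2 ran from -0.48 to 0.017, positive without replicate 2, and Cx3cr1 from -0.47 to 0.020, positive without replicate 1. Over all genes 18 passed in limma, against 165 with processed signals, 47 with no offset, 54 with no detection filter, 3 with no background correction and 375 with the trended and robust variance. None (0) passed with median centring or with the authors' deposited values, with 492 and 972 at an unadjusted p under 0.05. The cause was not tested. Aquantile changes brightness alone and left each ratio as it was. The limit of all of this is 2 arrays, with 1 RNA of each sex and genotype, and no array alone can be tested.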

Other observations

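Genes that carry a C1q-like globular domain but do not belong to complement were mixed in direction. Of 24 listed, 17 were well above background and tested, 8 were lower and 3 higher on both arrays, and the median log2 ratio was -0.07. C1ql3, a secreted synaptic protein of neurons, fell 2.98-fold (log2 ratio -1.58 ± 0.237, SD, n = 2; limma adjusted p = 0.0380). It had levels of 8.37 and 8.37 in Gata2cKO RNA, against 9.78 and 10.12 in control RNA. It was the 1 gene of the list past the threshold. C1qtnf4 was at -0.39 and Emilin2, a matrix glycoprotein of elastic tissue, at 0.48 (limma adjusted p = 0.536 and 0.669).

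Of 6 monocyte genes listed, 3 were tested and all 3 were higher on both arrays, the integrin gene Itga4 at 0.33, Plac8 at 0.18 and Ly6c1 at 0.12 (limma adjusted p from 0.588 to 0.902). None of these is specific to monocytes, since other cells of an embryo also make them, and Ccr2 was not well above background. Of 10 lymphocyte genes 4 were tested, with a median of -0.01.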
